A study of Mus musculus with 16 samples.

Results

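The wild-type ganglion libraries fall into those with much and those with little Dbh, the enzyme that makes noradrenaline from dopamine. Of the 8 wild types, 3 had Dbh above 50 CPM (reads scaled to a common library total) and are called Dbh-high (WT_alpha3 45, WT_alpha3 79 and WT_beta 401), and 5 had Dbh below 10 CPM and are called Dbh-low (WT_alpha3 54, WT_alpha3 55, WT_beta 399, WT_beta 410 and WT_beta 415). The series holds 16 libraries. Dbh was at 158, 76.8 and 67.2 CPM in Dbh-high libraries, against 0.711, 0.938, 8.17, 2.14 and 2.04 CPM in Dbh-low libraries. The groups were chosen by these values, so Dbh is left out of every count of genes called or passing. The lowest value inside the Dbh-high group was 67.2 CPM, in WT_beta 401, and the highest outside it was 8.17 CPM, in WT_beta 399.

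Polyadenylated RNA was sequenced from lumbar dorsal root ganglia of C57BL/6 mouse embryos at embryonic day 13.5. The series contains 4 knockouts of importin alpha3 (KO_alpha3), 4 knockouts of the importin beta 1 3' untranslated region (KO_beta), and 4 wild types labelled with each line (WT_alpha3 and WT_beta). Dbh-high libraries comprised 2 of WT_alpha3 and 1 of WT_beta, and Dbh-low libraries 2 of WT_alpha3 and 3 of WT_beta. No label gives the litter, the embryos behind a library or a dissection batch, so p-values measure the spread between these libraries, which may be technical, and a batch and the Dbh split cannot be told apart.

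Library totals ran from 19682595 to 26873361 counts, and a count of 0 allowed a level of at most 0.112 to 0.152 CPM (3 counts of the total, counting error only). Kpna4, the gene of importin alpha3, was at 0.724, 0.956, 0.611 and 1.11 CPM in the KO_alpha3 libraries, against 66.5 to 84.0 CPM in the wild types. Gene-level counts do not check the deletion of an untranslated region in KO_beta. WT_beta 399 stood apart through liver transcripts, which summed to 5499 CPM there and to 25.6 to 474 CPM in the other wild types. WT_alpha3 79 and WT_beta 399 had little Hoxa10, a Hox gene of caudal segments, at 4.52 and 1.93 CPM, against 23.4 to 88.0 CPM in the other wild types. Values without 1 or both of these libraries are given below for several results.

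Sympathetic ganglia and dorsal root ganglia both arise from the trunk neural crest and lie close together beside the vertebral column. Sympathetic neurons are specified by transcription factors that include Phox2a, Hand2, Gata2, Gata3 and Insm1, and turn tyrosine into noradrenaline through Th, Ddc and Dbh. Noradrenaline is loaded into vesicles by Slc18a1 and Slc18a2 and taken back up by Slc6a2. Somatic sensory neurons instead carry Pou4f1, Isl1 and the Trk receptors, and some of them also make Th.

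Because the genes with the largest contrasts were transcription factors, the promoters of 20 genes of noradrenaline synthesis and sympathetic specification were searched in RefSeq (GRCm38.p6). The table held 14 of the 20 genes, with 16 promoters of 300 bases, from 250 bases before the start site to 50 after it. Both strands were searched, on 32851 promoters in all. The homeodomain core ATTA, which Phox2a and many other homeodomain factors can bind, was in 8 of the 16 promoters and in 58% of all promoters. The listed genes with ATTA were Dbh, Ddc, Hand2, Pcbd1, Slc18a2, Tfap2b and Th. The longer TAATTA, which contains ATTA, was in the promoters of Hand2 and Pcbd1 and in 5.29% of all. The E-box CATCTG was in those of Hand2 and Qdpr and in 17.2% of all. The cyclic AMP element TGACGTCA was in those of Th and Slc18a2 and in 1.79% of all. A match is a description of the letters and not a binding site. The windows below, 30 bases each on the strand of the gene, show 1 match each in the gene that chose the groups (Dbh), in a factor that followed it (Hand2), and in the pathway enzyme that did not (Th). Capitals mark the motif.
Dbh, chr2:27165429-27165458 (+), 65 bases before the start: ccagacaaatgtgATTAggtgcagcctggc
Hand2, chr8:57320796-57320825 (+), 175 bases before the start: ccccccccgtttTAATTAtcttatggttat
Th, chr7:142900022-142900051 (-), 45 bases before the start: cagaggggcttTGACGTCAgcctggccttt

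Across 14356 genes with a mean of at least 1 CPM over the 8 wild types, 275 were higher in Dbh-high libraries (1.92% of the genes) and 241 were lower (1.68%). A gene was called when the groups did not overlap and the ratio of (mean CPM + 0.5) was at least 2-fold. The filter took the mean over both groups, so a gene near 0 in 1 group could pass through the other alone. Because Dbh in these same libraries chose the groups, the contrast is a description and carries no p-value. The median log2 ratio of all genes, Dbh-high over Dbh-low, was 0.05. Absence of overlap forces the same sign within WT_alpha3 and within WT_beta for every called gene, so that sign adds nothing. Of the 275 higher genes, 127 reached 2-fold in both lines, as did 10 of the 241 lower genes. The counts depended on single libraries: 501 genes were higher without WT_beta 399, 446 were higher and 552 lower without WT_beta 401, and 123 were lower without WT_alpha3 79. Without both WT_alpha3 79 and WT_beta 399, 383 were higher and 165 lower. These are bulk libraries, so more cells of a type and more RNA per cell cannot be told apart.

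**Figure D1:**
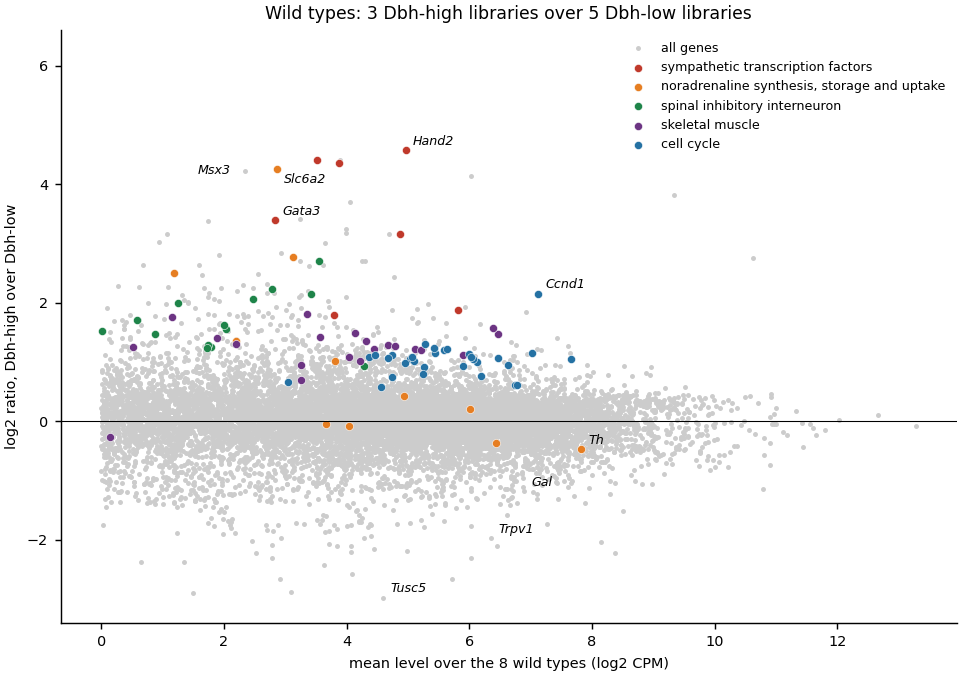
Each point is a gene, with its mean level over the 8 wild types on the x axis (log2 CPM) and the log2 ratio of Dbh-high over Dbh-low on the y axis. Coloured points are members of 5 gene lists. Sympathetic transcription factors reach a log2 ratio of 4.57 (Hand2), while Th lies at -0.47.

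All 7 sympathetic transcription factors listed were higher in Dbh-high libraries, beside 1.92% of all genes, with a median log2 ratio of 3.40. It was 4.15 within WT_alpha3 and 2.77 within WT_beta. The list was drawn up with results of these libraries known, so its direction is no independent evidence. Hand1, with a Dbh-low mean of 0.885 CPM, passed the filter only through Dbh-high libraries. In WT_beta alone, 6 of the 7 kept a 2-fold difference, and Insm1, a zinc finger factor of newly born neurons, had a log2 ratio of 0.86.

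Hand2 (chr8:57320983-57324517), a basic helix-loop-helix factor needed for the noradrenergic phenotype, was at 118, 60.1 and 57.5 CPM in Dbh-high libraries, against 0.756, 1.38, 8.78, 1.69 and 1.49 CPM in Dbh-low libraries. WT_alpha3 45 was highest and the groups did not overlap, the nearest Dbh-low library being WT_beta 399. Means were 78.5 ± 34.1 CPM in Dbh-high libraries (SD, n = 3) and 2.82 ± 3.35 CPM in Dbh-low libraries (SD, n = 5). The log2 ratio of 4.57 became 5.43 without WT_beta 399.

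Phox2a (chr7:101818313-101822726), a homeobox factor that acts on Dbh and Th, was at 57.6, 29.2 and 23.6 CPM in Dbh-high libraries, against 0.667, 0.839, 3.52, 0.927 and 0.589 CPM in Dbh-low libraries. Hand1 (chr11:57828713-57832147), the paralog of Hand2, was at 47.3, 25.96 and 13.4 CPM in Dbh-high libraries, against 0.222, 0.444, 2.79, 0.565 and 0.408 CPM in Dbh-low libraries. Neither gene overlapped between the groups, and the log2 ratios were 4.37 for Phox2a and 4.41 for Hand1, with 5.01 for Hand1 without WT_beta 399. Gata3 (chr2:9857078-9887953), a zinc finger factor that maintains sympathetic neurons, was at 27.6, 10.6 and 13.2 CPM in Dbh-high libraries, against 0.534, 0.790, 2.67, 0.685 and 1.18 CPM in Dbh-low libraries. Its log2 ratio was 3.40. The non-coding 4930412O13Rik, chosen after its values were seen, lies inside the Gata3 span (chr2:9881246-9886767) and had a log2 ratio of 3.37. Strand counting is not stated, so reads of the pair cannot be told apart. Gata2, which is also used by other lineages, was at 34.8, 19.7 and 21.6 CPM in Dbh-high libraries, against 4.34 to 9.71 CPM in Dbh-low libraries, a log2 ratio of 1.80.

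Insm1 and Tfap2b followed another order. Tfap2b, an AP-2 factor of neural crest derivatives and spinal interneurons, was at 67.1, 75.9 and 55.6 CPM in Dbh-high libraries, against 3.16 to 11.3 CPM in Dbh-low libraries. Insm1 was at 124, 128 and 60.4 CPM in Dbh-high libraries, against 16.8 to 37.7 CPM in Dbh-low libraries. The log2 ratio was 3.15 for Tfap2b and 1.88 for Insm1. Of the 7 factors, 5 were highest in WT_alpha3 45, the library with the most Dbh, and these 2 in WT_alpha3 79.

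**Figure D2:**
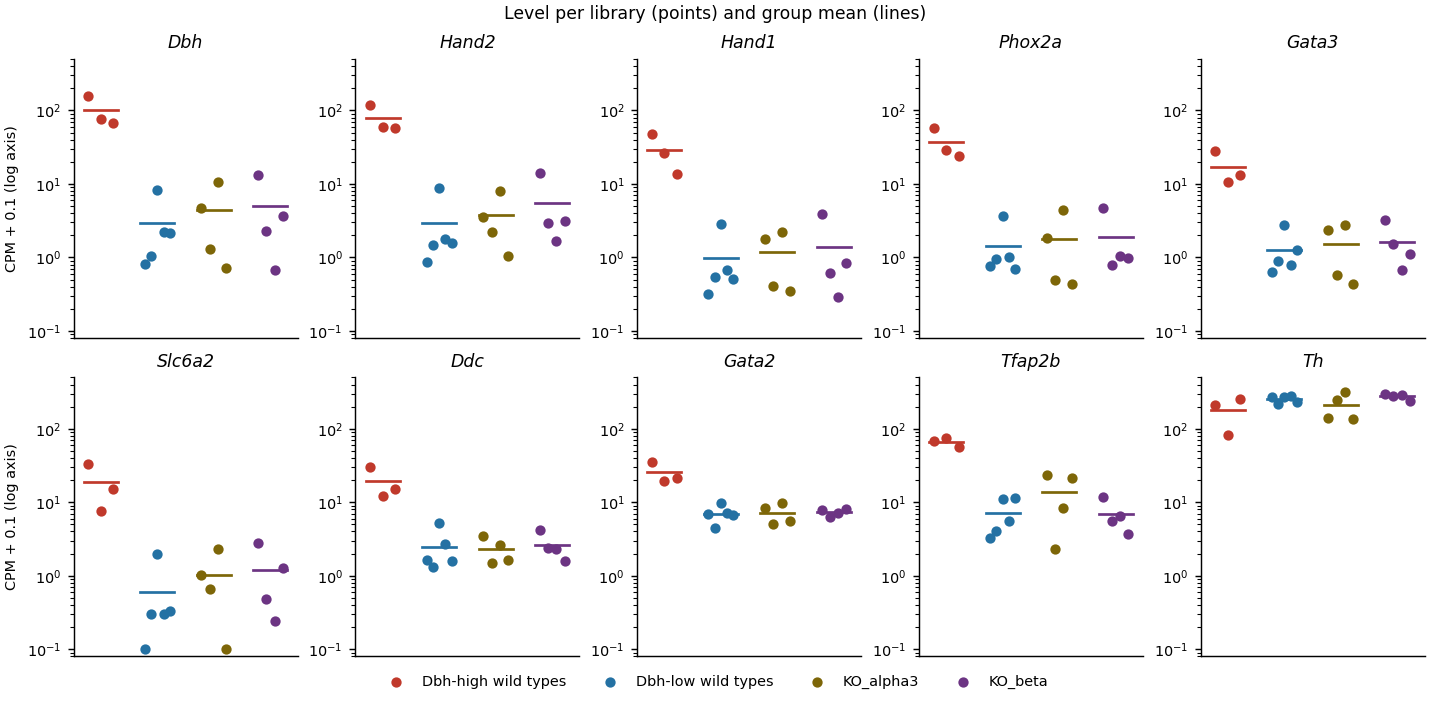
Level of 10 genes in every library (points, CPM + 0.1 on a log axis) with the group mean (lines), for Dbh-high wild types, Dbh-low wild types, KO_alpha3 and KO_beta. Hand2 runs from 57.5 to 118 CPM in Dbh-high libraries and from 0.756 to 8.78 CPM in Dbh-low libraries, whereas Th overlaps.

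The ratio of reads to Dbh reads, a description that uses the Dbh values behind the choice of groups, varied by gene. Hand2 had 0.747 to 0.855 reads per Dbh read in Dbh-high libraries, 0.733 to 1.47 in Dbh-low libraries and 0.733 to 2.75 in the knockouts. Phox2a had 0.350 to 0.380 in Dbh-high libraries and 0.289 to 0.938 in Dbh-low libraries, with 0.25 to 1.67 in the knockouts. Slc6a2, the noradrenaline transporter, had 0.0973 to 0.225 in Dbh-high libraries and 0 to 0.227 in Dbh-low libraries. Hand1 had 0.20 to 0.338 in Dbh-high libraries, 0.20 to 0.474 in Dbh-low libraries and 0.202 to 0.400 in the knockouts. Gata3 did not overlap between the groups, with 0.138 to 0.196 in Dbh-high libraries, against 0.321 to 0.842 in Dbh-low libraries. Neither did Ddc, with 0.159 to 0.223 against 0.621 to 2.19. Th was furthest apart, with 1.08 to 3.82 reads per Dbh read in Dbh-high libraries, against 32.9 to 374 in Dbh-low libraries.

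Of 11 counted genes of noradrenaline synthesis, storage and uptake other than Dbh, 5 were higher in Dbh-high libraries and none was lower. The shares over all genes were 1.92% and 1.68%. The list's median log2 ratio was 0.42. Of the called genes, Slc6a2 and Slc18a1, with Dbh-low means of 0.497 and 0.509 CPM, passed the filter only through Dbh-high libraries. Slc6a2 (chr8:92960470-93001667) was at 33.3, 7.47 and 15.1 CPM in Dbh-high libraries, against 0, 0.197, 1.86, 0.202 and 0.226 CPM in Dbh-low libraries. The value of 0 in WT_alpha3 54 allows a level of up to 0.133 CPM. The groups did not overlap, and the log2 ratio was 4.26, 3.57 without WT_alpha3 45 and 4.86 without WT_beta 399. Ddc, which makes dopamine from DOPA, was at 30.5, 12.2 and 15.01 CPM in Dbh-high libraries, against 1.56, 1.23, 5.07, 2.58 and 1.49 CPM in Dbh-low libraries, a log2 ratio of 2.77. Slc18a1, the vesicular monoamine transporter of chromaffin cells, was at 7.58, 4.06 and 4.08 CPM in Dbh-high libraries, against 0.395 to 0.634 CPM in Dbh-low libraries.

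The smallest called ratios of this list were those of Gch1, which starts the synthesis of the cofactor of Th, and Slc18a2, the neuronal vesicular monoamine transporter. Gch1 was at 12.7, 5.39 and 4.94 CPM in Dbh-high libraries, against 2.13 to 3.06 CPM in Dbh-low libraries, and its log2 ratio of 1.36 became 0.83 without WT_alpha3 45. Slc18a2 was at 30.5, 17.8 and 14.0 CPM in Dbh-high libraries, against 8.75 to 11.8 CPM in Dbh-low libraries. Its log2 ratio of 1.02 became 0.65 without WT_alpha3 45, 0.99 without WT_beta 399 and 0.98 without WT_beta 410, below 2-fold in each case. Th, the first enzyme of the pathway, was at 207, 83.0 and 257 CPM in Dbh-high libraries, against 266, 217, 268, 282 and 234 CPM in Dbh-low libraries. The groups overlapped and the log2 ratio was -0.47, with WT_alpha3 79 lowest. Pnmt, which makes adrenaline, was at 0.708, 0.610 and 0.583 CPM in Dbh-high libraries, against 0.0445 to 0.155 CPM in Dbh-low libraries, under the filter on mean level. Pts, Pcbd1, Maoa and Cyb561 overlapped between the groups, with log2 ratios from -0.08 to 0.42. Qdpr was at 76.5, 54.1 and 89.0 CPM in Dbh-high libraries, against 89.7 to 98.4 CPM in Dbh-low libraries. Its groups did not overlap, but the log2 ratio was -0.36.

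Of 13 neuropeptide and granule genes, 2 were higher and 1 was lower, beside 1.92% and 1.68% of all genes. The list's median log2 ratio was -0.24. Cartpt, a peptide precursor, was at 29.0, 12.9 and 14.5 CPM in Dbh-high libraries, against 2.80, 1.48, 2.90, 7.42 and 4.94 CPM in Dbh-low libraries. Vip, a neuropeptide of cholinergic autonomic neurons, was at 6.04, 0.813 and 4.90 CPM in Dbh-high libraries, against 0.0445 to 0.580 CPM in Dbh-low libraries. With a Dbh-low mean of 0.210 CPM, Vip passed the filter only through Dbh-high libraries. The granule proteins Chga, Chgb and Scg3 overlapped between the groups, with log2 ratios of -0.02, -0.10 and -0.24. Npy, a cotransmitter of sympathetic neurons, was at 17.6, 5.13 and 25.1 CPM in Dbh-high libraries, against 2.79 to 8.24 CPM in Dbh-low libraries, and overlapped through WT_alpha3 79. Gal, a neuropeptide also made by sensory neurons, was lower, at 61.6, 13.1 and 123 CPM in Dbh-high libraries, against 124 to 180 CPM in Dbh-low libraries. Its log2 ratio of -1.18 became -0.70 without WT_alpha3 79.

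Among 11 autonomic receptors and channels, none was higher and 2 were lower, beside 1.92% and 1.68% of all genes. Their median log2 ratio was 0.35. The nicotinic receptor subunit Chrna3, which carries ganglionic transmission, was at 47.9, 45.3 and 30.8 CPM in Dbh-high libraries, against 17.0 to 26.6 CPM in Dbh-low libraries. The groups did not overlap, but the log2 ratio was 0.86. Ret, the receptor of GDNF ligands in sensory and autonomic neurons, was lower at a log2 ratio of -1.01 and fell short of 2-fold without WT_alpha3 54, WT_alpha3 55 or WT_alpha3 79. Htr3b, a serotonin receptor subunit, was at 2.08, 0.508 and 10.5 CPM in Dbh-high libraries, against 12.2 to 28.4 CPM in Dbh-low libraries. Alk, a receptor tyrosine kinase of sympathetic precursors, overlapped, with a log2 ratio of 0.91. Of 4 counted cholinergic genes, Slc18a3, the vesicular acetylcholine transporter, was higher (log2 ratio 2.24), and the list's median was -0.71.

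Genes outside the noradrenergic lists differed in which library was highest. Sytl4, which acts in the docking of secretory granules, was at 56.2, 18.7 and 35.0 CPM in Dbh-high libraries, against 1.82 to 6.08 CPM in Dbh-low libraries. Eya1, a transcriptional cofactor of kidney, ear and placode development, was at 59.6, 24.5 and 24.6 CPM in Dbh-high libraries, against 2.0 to 5.84 CPM in Dbh-low libraries. Cacng3, an auxiliary subunit of AMPA receptors, was at 10.5, 5.28 and 4.86 CPM in Dbh-high libraries, against 0.323 to 1.13 CPM in Dbh-low libraries. These 3 were highest in WT_alpha3 45, like Hand2. Of all 275 higher genes, 52 were highest in WT_alpha3 45, 185 in WT_alpha3 79 and 38 in WT_beta 401.

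The called spinal cord genes were all higher in Dbh-high libraries. Of 14 counted markers of spinal inhibitory interneurons, 9 were higher in Dbh-high libraries and none lower, beside 1.92% and 1.68% of all genes. Their median log2 ratio was 1.59, beside 0.05 over all genes. Their summed level was 82.7, 180 and 169 CPM in Dbh-high libraries, against 21.0, 40.7, 38.3, 25.1 and 74.8 CPM in Dbh-low libraries. Of the 14, 10 were highest in WT_beta 401 and 4 in WT_alpha3 79, and none in WT_alpha3 45. Pax2, a transcription factor of these interneurons, was at 12.2, 23.9 and 27.4 CPM in Dbh-high libraries, against 1.33 to 8.78 CPM in Dbh-low libraries. Of 15 listed spinal progenitor genes, 8 passed the filter, with a median of 1.39. Of these 8, 4 were higher (Pax6, Nkx6-1, Sox1 and Gsx1), beside 1.92% of all genes. Gsx1, with means of 2.88 CPM in Dbh-high and 0.197 CPM in Dbh-low libraries, passed only through Dbh-high libraries. So did Lmx1a, with means of 3.54 and 0.336 CPM. Such members raise the median of the list, and Gsx1 its count.

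Several higher genes had a smaller log2 ratio without WT_alpha3 79. Msx3, a homeobox gene of dorsal progenitors, was at 1.25, 34.0 and 3.97 CPM in Dbh-high libraries, against 0.148 to 0.356 CPM in Dbh-low libraries, and its log2 ratio of 4.23 became 2.10 without WT_alpha3 79. Robo3, a guidance receptor of commissural axons, was at 19.8, 110.5 and 45.7 CPM in Dbh-high libraries, against 3.15 to 9.29 CPM in Dbh-low libraries. Without WT_alpha3 79, the log2 ratio of Robo3 was 2.33 in place of 3.16, and that of Prdm13, which specifies dorsal inhibitory neurons, 1.36 in place of 3.02. The other transcription factors Gbx2, Sall3, Rfx4 and Gsx1 had 2.10, 1.97, 1.59 and 1.15 without that library, in place of 2.81, 2.71, 2.49 and 2.28. The Hox gene Hoxb9 had 1.18 in place of 1.85, Hoxc6 1.08 in place of 1.74, and the glutamate receptor Grm2 2.33 in place of 3.01. Skor1, a corepressor in dorsal spinal neurons, was about as high in WT_beta 401 as in WT_alpha3 79, at 6.24, 22.3 and 22.5 CPM in Dbh-high libraries, against 1.25 to 2.85 CPM in Dbh-low libraries.

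Muscle and mesenchymal genes were called only as higher, and 1.92% of all genes were called higher. Of 21 counted skeletal muscle genes, 6 were higher, with a median log2 ratio of 1.27, and 20 of the 21 were highest in WT_beta 401. The summed level was 659, 420 and 1366 CPM in Dbh-high libraries, against 121, 328, 471, 455 and 226 CPM in Dbh-low libraries, with WT_alpha3 79 below 2 Dbh-low libraries. Myod1, the myogenic master regulator, was at 18.6, 14.1 and 24.3 CPM in Dbh-high libraries, against 2.36 to 8.13 CPM in Dbh-low libraries. Pax7, also called higher in this list, had a Dbh-low mean of 0.938 CPM and passed the filter only through Dbh-high libraries. Of 7 smooth muscle genes 2 were higher, and Acta2, smooth muscle actin, was at 81.0, 83.0 and 93.6 CPM in Dbh-high libraries, against 15.1 to 45.7 CPM in Dbh-low libraries. Pax1, a factor of the sclerotome that forms vertebrae, was at 30.3, 32.6 and 59.6 CPM in Dbh-high libraries, against 3.87 to 8.55 CPM in Dbh-low libraries. It was 1 of 2 higher among 10 cartilage genes (list median 0.42), with Sox9. Twist1, Twist2 and Fbln1 were the 3 higher among 15 fibroblast and meningeal genes (list median 0.35), and the log2 ratio of Twist1 was 0.78 without WT_alpha3 79, in place of 1.17.

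Of 7 counted kidney and gonad genes, 3 were higher (Eya1, Six2 and Osr2), beside 1.92% of all genes. The list had a median log2 ratio of 1.30. Its summed level was 137, 140 and 122 CPM in Dbh-high libraries, against 42.2 to 82.7 CPM in Dbh-low libraries. Osr2, with a Dbh-low mean of 0.856 CPM, passed the filter only through Dbh-high libraries. Adrenal cortex genes were not called: of 12 listed, 4 passed the filter and none was higher. Nr5a1, the factor that defines steroid-producing cells, was at 0.125, 0.610 and 0.117 CPM in Dbh-high libraries, against 0 to 0.178 CPM in Dbh-low libraries. Cyp17a1, a steroid-synthesis enzyme, was at most at 0.0508 CPM in the wild types. None of 3 gut, 16 endothelial, 14 macrophage or 3 melanocyte genes was called in either direction, with medians from 0.14 to 0.47, and 1 of 12 epidermal genes, Cdh1, was lower.

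Blood, liver and Hox genes varied with single libraries. Erythroid genes summed to 5337, 10768 and 882 CPM in Dbh-high libraries, against 389 to 2424 CPM in Dbh-low libraries, and 0 of 10 were called because the groups overlapped. Their median log2 ratio was 2.62 within WT_alpha3 and -1.57 within WT_beta, and 0.93 over all wild types, which became -0.52 without WT_alpha3 79 and 2.19 without WT_beta 399. The liver list had 0 of 14 called, with a median of -1.61 that became 1.02 without WT_beta 399. Of 19 trunk Hox genes 4 were higher (Hoxb8, Hoxb9, Hoxc4 and Hoxc6), beside 1.92% of all genes, and 16 were highest in WT_alpha3 79. Their median log2 ratio of 0.80 became 0.44 without that library. Of 6 caudal Hox genes, 0 were called. Y-linked Kdm5d did not follow the split, at 36.0, 45.6 and 0.0389 CPM in Dbh-high libraries, against 27.4, 33.0, 0.0387, 0 and 0.272 CPM in Dbh-low libraries, and 0 of 5 sex-linked transcripts were called. Kdm5d was at 27.4 to 45.6 CPM in WT_alpha3 and at most at 0.272 CPM in WT_beta. Sex and line therefore cannot be told apart in the wild types.

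**Figure D3:**
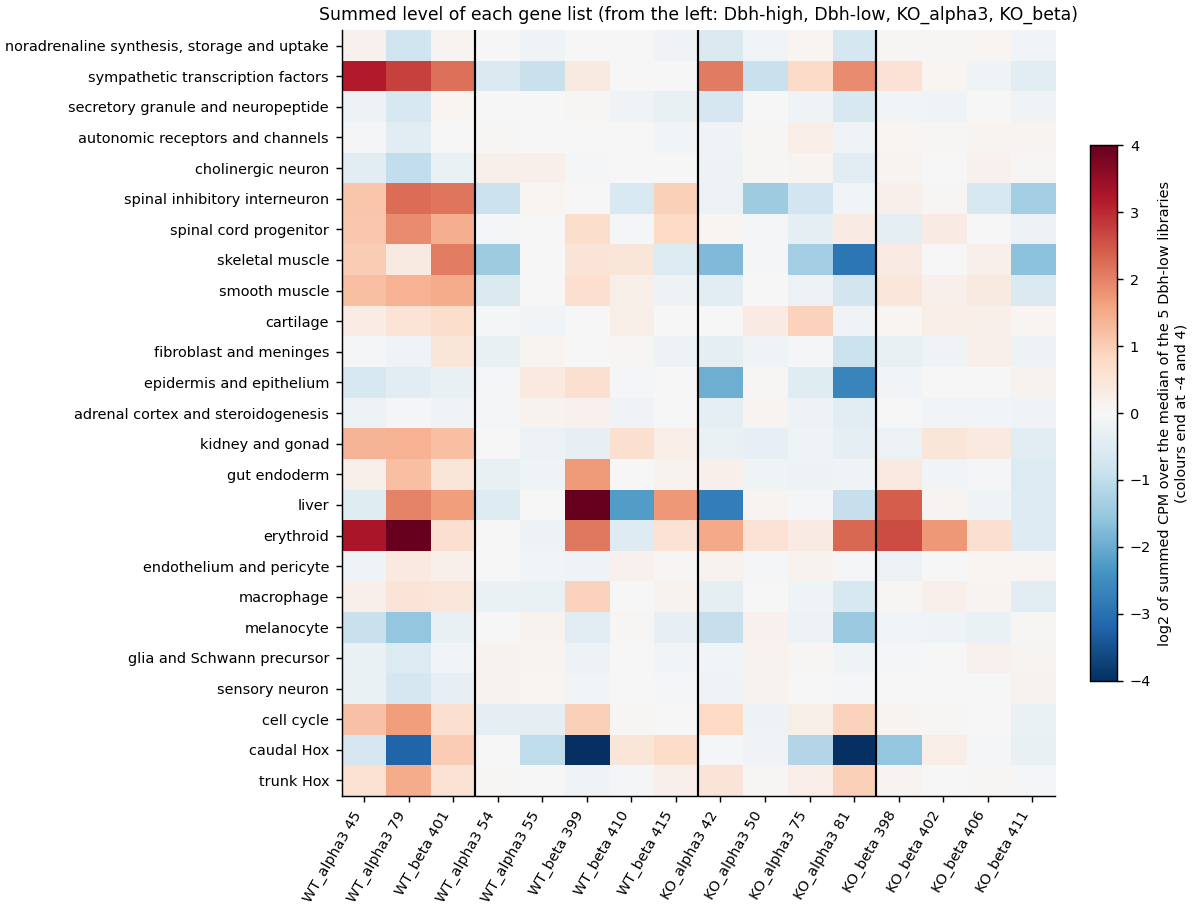
Summed CPM of each gene list in each library, as the log2 of the ratio to the median of the 5 Dbh-low libraries (red above, blue below; colours end at -4 and 4). From the left stand the Dbh-high, Dbh-low, KO_alpha3 and KO_beta libraries. Sympathetic transcription factors sum to 477, 349 and 245 CPM in Dbh-high libraries and to 28.5 to 68.6 CPM in Dbh-low libraries. In KO_alpha3 42 and 81 they sum to 222 and 195 CPM, of which Insm1 makes 181 and 166 CPM and Hand2 makes 3.42 and 0.946 CPM.

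Genes of the sensory ganglion itself were called in both directions. Of 22 sensory neuron genes, 3 were higher (Neurod1, Neurog1 and Neurog2, proneural factors), 3 were lower (Avil, Runx1 and Prph), and the median log2 ratio was -0.21. Over all genes, 1.92% were higher and 1.68% lower. Neurog2, with a Dbh-low mean of 0.729 CPM, passed the filter only through Dbh-high libraries. The summed level of the sensory neuron list was 9657, 7372 and 9360 CPM in Dbh-high libraries, against 10856 to 12835 CPM in Dbh-low libraries. The groups did not overlap. Pou4f1 and Isl1, which define sensory neurons at this stage, had log2 ratios of 0.21 and 0.04. Neurog1 was at 51.2, 59.7 and 16.8 CPM in Dbh-high libraries, against 1.23 to 10.5 CPM in Dbh-low libraries. Neurod4, a factor downstream of the neurogenins, was at 33.1, 34.0 and 11.9 CPM in Dbh-high libraries, against 0.543 to 8.14 CPM in Dbh-low libraries. Of 15 glial genes 1 was higher (Pou3f1) and 1 lower (S100b), with a median of -0.11.

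All 31 cell cycle genes had a positive log2 ratio, with a median of 1.06, and 30 were highest in WT_alpha3 79. Of the 31, 4 were called higher (Ccnd1, Cenpe, Cenpf and E2f1), beside 1.92% of all genes. The median was 1.78 within WT_alpha3 and 0.17 within WT_beta, and 0.69 without WT_alpha3 79. Ccnd1, the cyclin of G1 phase, was at 370, 263 and 178 CPM in Dbh-high libraries, against 49.7 to 86.4 CPM in Dbh-low libraries. Mki67, a marker of cycling cells, was at 237, 497 and 161 CPM in Dbh-high libraries, against 85.8, 90.3, 292, 117 and 130 CPM in Dbh-low libraries, and overlapped through WT_beta 399. Cenpf fell short of 2-fold without WT_alpha3 79.

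The lower genes included channels and receptors of nociceptors. Of the 241, 225 were lowest in WT_alpha3 79, 14 in WT_alpha3 45 and 2 in WT_beta 401. Trpv1, the heat and capsaicin channel, was at 22.6, 2.69 and 60.7 CPM in Dbh-high libraries, against 128, 138, 75.2, 119 and 110 CPM in Dbh-low libraries, and its log2 ratio of -1.98 became -3.13 without WT_beta 401. Scn11a, a sodium channel of nociceptors, was at 2.75, 1.17 and 4.94 CPM in Dbh-high libraries, against 7.43 to 43.8 CPM in Dbh-low libraries. Tusc5 had the lowest log2 ratio of the lower genes, -2.98, at 2.21, 1.47 and 8.75 CPM in Dbh-high libraries, against 18.0 to 76.7 CPM in Dbh-low libraries. The sensory receptor Mrgprx1 and the acid phosphatase Acpp were at log2 ratios of -2.90 and -2.31. Without WT_alpha3 55 the ratio was -2.02 for Mrgprx1 and -1.80 for Scn11a, in place of -2.42. Without WT_beta 401 it was -3.96 for Tusc5, -4.25 for the transporter Abca8a and -3.71 for the glutamate receptor Grm7, in place of -2.98, -2.66 and -2.57. The 10 genes with the lowest ratios had ratios from -4.75 to -3.23 within WT_alpha3 and from -1.18 to -0.72 within WT_beta. Runx1, Prph, Gal and Ret fell short of 2-fold without WT_alpha3 79. The part of stage or maturity in the wild-type contrast was not tested.

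**Figure D4:**
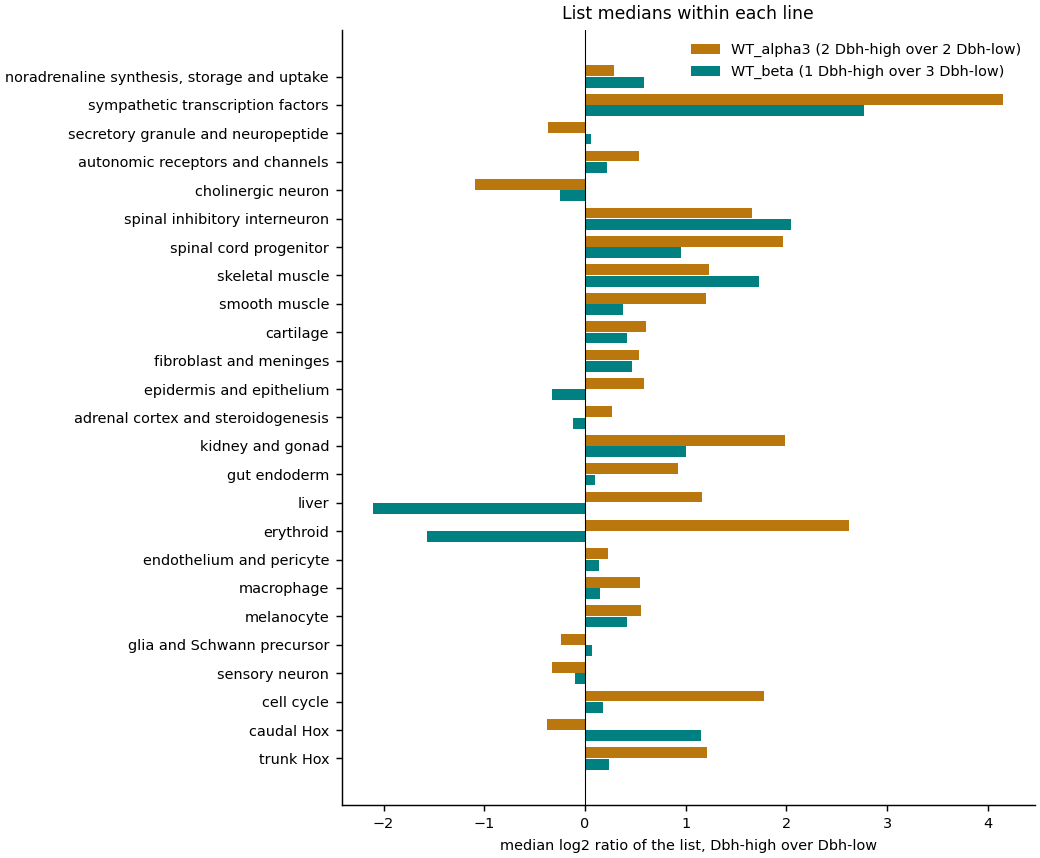
Median log2 ratio of each gene list, Dbh-high over Dbh-low, within WT_alpha3 and within WT_beta (bars from 0). Sympathetic transcription factors stand at 4.15 and 2.77 and spinal inhibitory interneuron genes at 1.66 and 2.05, while the erythroid list stands at 2.62 and -1.57 and cell cycle genes at 1.78 and 0.17.

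The same measure could be tested in the 8 knockout libraries, which the Dbh split had not used. Dbh was at 4.67, 1.22, 10.6 and 0.617 CPM in KO_alpha3 (42, 50, 75 and 81) and at 13.1, 2.21, 0.566 and 3.55 CPM in KO_beta (398, 402, 406 and 411). No knockout reached the 67.2 to 158 CPM of Dbh-high wild types. The slopes therefore cover a lower and narrower range of Dbh than the wild-type contrast. Each of 15126 genes was fitted with a slope on log2(Dbh CPM + 1) and a term for the line (edgeR quasi-likelihood, 2-sided, Benjamini-Hochberg). A slope of 1 means that the gene's log2 level moved by as much as log2(Dbh CPM + 1). At an adjusted p under 0.05, 0 genes (0%) had a positive slope and 0 a negative one, whereas DESeq2 with the same terms called 9, all positive. At an unadjusted p under 0.05, 410 genes passed, 245 with a positive slope (1.62%) and 165 with a negative one (1.09%).

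Hand2 and Hand1, which led the wild-type contrast, had the lowest p of all genes, although neither passed in edgeR. Hand2 was at 3.42, 2.13, 7.99 and 0.946 CPM in KO_alpha3 and at 13.9, 2.89, 1.56 and 3.05 CPM in KO_beta, the order of Dbh except for KO_alpha3 81 and KO_beta 406, the lowest pair. Its slope was 0.97 ± 0.091 (SE), with an adjusted p of 0.0741 in edgeR. Hand1 had a slope of 1.27 ± 0.12, with the same adjusted p in edgeR. In DESeq2 the adjusted p was 2.2e-14 for Hand2 and 1.5e-07 for Hand1. Phox2a had a slope of 1.05 ± 0.17 and Gata3 one of 0.90 ± 0.15, both with an edgeR adjusted p of 0.988, against 0.0019 and 0.0021 in DESeq2. Slc6a2 had a slope of 1.26 ± 0.26, with adjusted p = 1.00 in edgeR and 0.0084 in DESeq2. Slopes of Hand2, Hand1, Phox2a, Gata3 and Slc6a2 were positive in every alternative fit that tested them.

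The calls rested on few libraries and on the terms fitted. In edgeR, 3 genes passed without the line term, 2 with Y-linked reads as a term, 4 with the cell cycle list as a term (chosen after seeing the data) and 1 (Hand2) without KO_alpha3 50. KO_alpha3 75 and KO_beta 398 had the most Dbh. Without both of them (also chosen after seeing the data), Hand2 had a slope of 0.77 and ranked 11th of 15128 genes by p, Hand1 1.48 and ranked 1st, and Phox2a 0.75 and ranked 375th. Hand2 ranked 1st in KO_alpha3 alone, with a slope of 0.93, and in KO_beta alone, with 1.03, but the edgeR adjusted p was 1.00 and 0.444. In KO_beta alone Phox2a ranked 134th and Gata3 65th, and in KO_alpha3 alone neither passed the count filter. Syt2 and Tenm3, named because DESeq2 called them and so chosen after their values were seen, had slopes of 0.16 and 0.17 but were not higher in Dbh-high wild types, with log2 ratios of -0.57 and -0.32.

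Of the 275 genes higher in Dbh-high wild types, 258 were tested in the knockouts and 12 (4.65%) had a positive slope at an unadjusted p under 0.05, beside 1.62% of all genes. They included Hand2, Hand1, Phox2a, Gata3, 4930412O13Rik, Gata2, Slc6a2, Ddc, Sytl4, C130021I20Rik and Mab21l1, of which the last 2 and 4930412O13Rik lie outside the naming rule and were chosen after their values were seen. Of all 258, 104 (40.3%) had a positive slope at any p, beside 45.2% of all genes. The 12 came mostly from genes highest in WT_alpha3 45: 11 of 50 tested, against 1 of 173 highest in WT_alpha3 79 and 0 of 35 highest in WT_beta 401. Of the 241 lower genes, 0 had a negative slope and 0 a positive one at that p.

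By list, 5 of 7 sympathetic transcription factors had a positive slope at an unadjusted edgeR p under 0.05, beside 1.62% of all genes. Of 11 synthesis genes, 2 did (Ddc and Slc6a2). The lists were chosen with earlier results of these data known, so these counts are no independent evidence. At that p, 1 of 22 sensory neuron genes had a positive slope and 1 of 15 glial genes a negative one. Insm1 and Tfap2b, which were highest in WT_alpha3 79, had slopes of -0.07 ± 0.29 and 0.13 ± 0.29. None of the spinal interneuron, spinal progenitor, skeletal muscle, smooth muscle, cartilage, fibroblast, kidney, trunk Hox or cell cycle genes tested had a positive slope at that p. Slopes were 0.14 ± 0.28 for Pax2, -0.04 ± 0.26 for Myod1 and 0.01 ± 0.082 for Ccnd1. A missed threshold does not show that they were unrelated to Dbh.

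KO_alpha3 42 and KO_alpha3 81 shared the direction of Dbh-high wild types in some called genes while their own Dbh was low. Insm1 was at 181 and 166 CPM there, against 18.1 and 54.9 CPM in KO_alpha3 50 and 75. Neurog1 was at 87.5 and 91.1 CPM there, against 2.61 and 13.5 CPM in KO_alpha3 50 and 75, and Trpv1 at 10.9 and 5.39 CPM there, against 148 and 62.9 CPM in KO_alpha3 50 and 75. Dbh in KO_alpha3 42 and 81 was at 4.67 and 0.617 CPM. These 2 libraries also differed in Y-linked Kdm5d, at 0.0805 and 0 CPM, against 42.1 and 42.3 CPM in KO_alpha3 50 and 75. Hoxa10 was at 60.3 CPM in KO_alpha3 42 and 0.863 CPM in KO_alpha3 81. These libraries were singled out by their values, so no test was made.

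**Figure D5:**
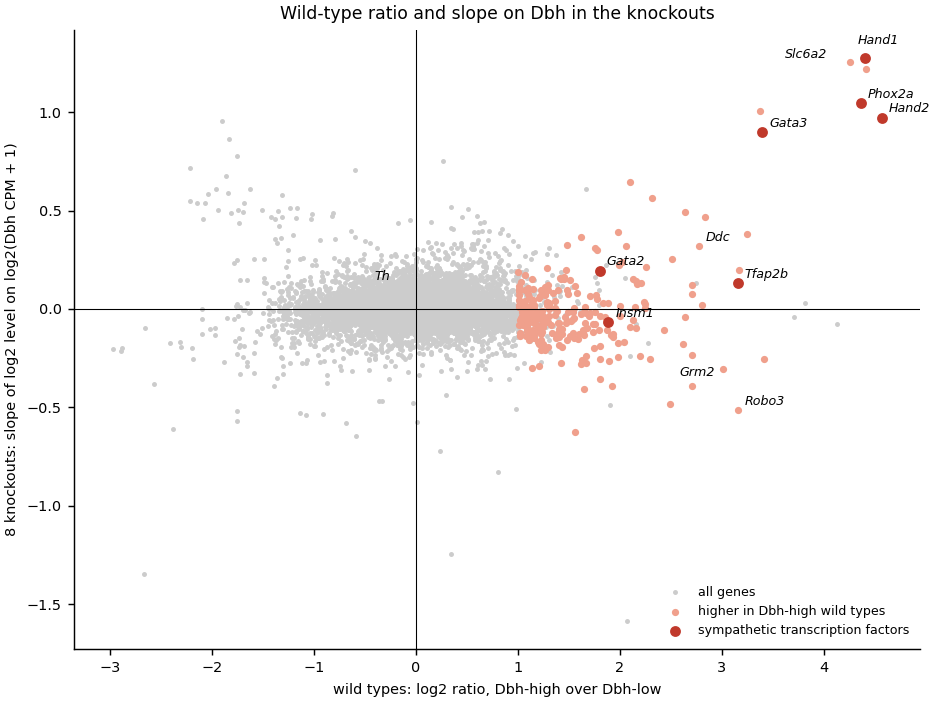
Each point is a gene, with its wild-type log2 ratio (Dbh-high over Dbh-low) on the x axis and its slope on log2(Dbh CPM + 1) over the 8 knockouts on the y axis. Hand2, Hand1, Phox2a, Gata3 and Slc6a2 stand at the upper right with slopes from 0.90 to 1.27, while Insm1 lies at -0.07.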

How the data were processed

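The authors deposited raw read counts, in whole numbers and by gene symbol, and a normalized signal equal to each count times 1 constant per library, used in 1 alternative. The build was mm10 per the submitters' processing notes, which also list TopHat2 2.0.10, HTSeq 0.6.1p1, bcl2fastq 2.17.1.14, DESeq2 1.6.3 and cutadapt. Annotation and strand setting: not given in the sources used here. Overlapping genes and near-identical copies are therefore uncertain. The table held 24421 symbols, 3922 of them without a count, and 24313 matched RefSeq (GRCm38.p6).

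Levels are CPM of the library total. The wild-type contrast used a pseudocount of 0.5 CPM, a mean of at least 1 CPM and at least 2-fold without overlap. The knockout slopes came from edgeR 4.0.16 in R 4.3.3 (TMM, filterByExpr with minimum count 10 and minimum total 15, quasi-likelihood tests), tested on simulated data, with DESeq2 1.42.0 as an alternative; figures used Python 3.11.15. Other alternatives were scaling, filters, fold, pseudocount, line, covariates and leaving out libraries.

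Named genes were the 4 noradrenergic lists, up to 15 further higher and 10 lower genes by log2 ratio, 2 per other list and the 5 knockout genes with the lowest p, without clone names. Some items that these rules name are not reported here. Mki67, Kpna4, Trpv1, Pou4f1, Isl1, Neurod1, Avil, Runx1, Prph, Hoxa10, Hoxc6, Pax2, Pax6, Nr5a1, Cyp17a1 and Osr2 were added after their values were seen, as were list members named only as called. The members and all 26 lists were chosen with earlier results of these data known.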

Additional observations from a re-analysis of the deposited data

Results flagged for a closer look

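WT_beta 399 lay far above the other Dbh-low libraries in 5 genes of the noradrenergic lists: Dbh at 8.17 CPM, Hand2 at 8.78, Phox2a at 3.52, Hand1 at 2.79 and Slc6a2 at 1.86 CPM. Dbh, which chose the groups, is included in these 5 and in the total below. KO_beta 398 lay far above the other KO_beta libraries in Hand2 (13.9 CPM), Phox2a (4.65 CPM) and Hand1 (3.80 CPM). In all, 48 groups of values were examined and 8 held such a library; chance gives about 1 in 20, and the genes share libraries.

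Between the lines, 6 of 136 genes compared moved in opposite directions, with every Dbh-high library of WT_alpha3 on one side of its Dbh-low libraries and WT_beta 401 on the other side of its own. The difference itself was not tested. The WT_alpha3 log2 ratios, Dbh-high over Dbh-low, were 3.20 for Lmx1a, a roof plate gene, 0.29 for Pcbd1, -0.54 for Gfra2, -0.92 for Pcsk1n, -1.16 for Penk and -1.80 for Hoxa10.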

How the results depend on the processing

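Genes higher in Dbh-high wild types numbered 275 and genes lower 241. They numbered 643 and 673 at 1.5-fold, 53 and 14 at 4-fold, and 999 and 769 in WT_alpha3 alone, where 2 libraries met 2. In WT_beta alone 29 were lower. Without WT_beta 399, 501 were higher. Without WT_alpha3 45 and 79, an alternative chosen after seeing the data, 58 were lower. Leaving out each library in turn gave 239 to 501 higher and 123 to 552 lower genes. TMM scaling gave 258 and 262, and the deposited normalized values 248 and 284.

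In the knockouts, positive slopes passed for 0 genes in edgeR, 9 in DESeq2 (7 of them higher in Dbh-high wild types), 3 without the line term (3 of them higher), 2 with Y-linked reads as a term (2) and 4 with the cell cycle list as a term (4). Leaving out each library in turn gave 0 to 1 genes for both counts, the 1 being Hand2 without KO_alpha3 50. No negative slope passed in any fit. Over alternatives, the adjusted p ran from 2.2e-14 to 1.00 for Hand2 and from 1.5e-07 to 1.00 for Hand1. The cause of these differences was not tested. Of the named slopes, 17 values crossed to the passing side and 2274 did not.

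No paired analysis was possible because the titles share no replicate number between groups. Levels under about 1 CPM rest on few reads.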
